A study of Mus musculus with 6 samples.

Results

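The genes that encode the proteins of the mitochondrial ribosome were examined in RAW264.7 cells, a mouse macrophage cell line, treated or not treated with TPPU, an inhibitor of soluble epoxide hydrolase. Members were taken by symbol: each gene in the expression table whose symbol is Mrpl or Mrps followed by a digit, with pseudogene symbols (-ps) left out. This gave 77 of the 18019 genes in the table, 48 of the large subunit (Mrpl) and 29 of the small subunit (Mrps). All 6 libraries came from cells induced with lipopolysaccharide (LPS), a bacterial product that activates macrophages. The control group held 3 libraries with no TPPU, and the TPPU group held 3 libraries of cells given LPS and TPPU. The labels used here state neither dose nor duration for LPS or TPPU, and no group without LPS was analysed here. RAW264.7 is a single transformed line, so no animal or donor stands behind the replicates. Separate cultures within a group are not named in the labels, so the p-values reflect only how far these libraries spread, and that spread may be technical.

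Mitochondria keep a small genome of their own, and the mitoribosome translates its messages into core subunits of the respiratory chain and of ATP synthase. Its RNA is made inside the organelle, whereas all of its proteins are encoded in the nucleus, made in the cytosol and imported. Part of these proteins descend from bacterial ribosomal proteins, and others were added in the evolution of mitochondria. The small subunit reads the mRNA, and the large subunit joins the amino acids and releases the chain at the inner membrane. Macrophages activated by LPS are known to shift from respiration toward glycolysis.

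Values are FPKM, the fragments of a gene divided by its length and by the library's total, so levels can be compared between genes per unit of length. Depth estimated from the steps between low values was 17.7 to 22.8 M (mega) fragments per library, and 3 fragments in a 1 kb transcript correspond to 0.132 to 0.170 FPKM. For the 3 members with 1 annotated transcript, Mrpl34, Mrpl50 and Mrps28, the lowest estimate in any library was 158, 243 and 167 fragments of the gene. These numbers carry a counting error of 7.95%, 6.42% and 7.74%. Of 8 macrophage markers, 7 passed the filter on low values, with a summed level of 1535 to 1708 FPKM in control and 1621 to 1704 in TPPU libraries, while Mertk was at or near 0. None of the 14 markers of T cells, B cells, fibroblasts, epithelium and endothelium in the table passed it, and the highest single value was 2.33 FPKM, for Col1a1. In control replicate 3, the values had the strongest correlation with the GC content of transcripts, and results are given with and without it below. The TPPU samples' descriptions also cite a column of a different table under a name that refers to a knockdown of LIS1. Pafah1b1, which encodes LIS1, was at 11.7, 14.2 and 6.52 FPKM in control replicates 1, 2 and 3 and at 10.7, 13.5 and 14.2 in TPPU replicates 1, 2 and 3.

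All 77 members passed the filter of at least 1 FPKM in at least 3 libraries, against 9728 of all 18019 genes. The change is the difference of means on the log2(FPKM + 1) scale, TPPU minus control, and was tested with limma over all 9728 genes with Benjamini-Hochberg adjustment. No member passed an adjusted p of 0.05: the lowest adjusted p was 0.492 in the large subunit and 0.564 in the small subunit. The background gave no call either, 0% of the genes tested in each direction. Without adjustment, 10 of the 77 members had p under 0.05 with a higher TPPU mean and 0 with a lower one, 13.0% and 0%, beside 4.19% (408 genes) and 3.7% (360 genes) of all genes tested. The count of 10 moved when a library was left out, and so did the share of all genes. It was 5, 9 and 12 without control replicates 1, 2 and 3, beside 3.80%, 4.57% and 6.86% of all genes. It was 5, 3 and 3 without TPPU replicates 1, 2 and 3, beside 3.598%, 2.47% and 2.37%. The count was 4 with the length trend removed, beside 2.75%, and 20 with libraries weighted by quality, beside 11.4%. Since no member passed the test, the values that follow describe these libraries and are not calls.

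The members leaned to one side. The change was positive in 62 of 77 members (80.5%), beside 54.4% of all genes tested. With quantile normalization it was positive in 54 (70.1%), beside 48.9%. Its median was 0.11 with quartiles of 0.02 and 0.24, beside a median of 0.02 with quartiles of -0.10 and 0.14 over all genes tested. Single members ran from -0.24 (Mrpl18) to 0.46 (Mrpl3), and the median standard error of a single member's change was 0.12. All 3 TPPU values lay above all 3 control values in 19 members (24.7%), beside 7.48% of all genes tested. All 3 lay below in 2 members (2.60%), beside 7.88%. In bulk RNA, more of these transcripts per cell and a different make-up of the culture cannot be told apart.

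The lean was smaller once transcript length was taken into account. Members are short: their longest coding transcripts had a median of 1339 bases, beside 2997 for all genes tested. Across the 77 members the change had a Pearson correlation of 0.32 with log length, and -0.33 with GC content. Among the members the longer ones thus tended to have the higher changes. Whether length gave rise to the lean was not tested. When the trend of each library's values with transcript length across all genes was removed, 47 of 77 members (61.0%) had a positive change, beside 49.3% of all genes, whose median was -0.00. The members' median was 0.045 in the large subunit, where it had been 0.11, and 0.029 in the small subunit, where it had been 0.10. Nuclear genes for other large assemblies had smaller medians as well, 0.06 in place of 0.13 for the cytosolic ribosomal proteins and 0.08 in place of 0.17 for complex I.

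**Figure D1:**
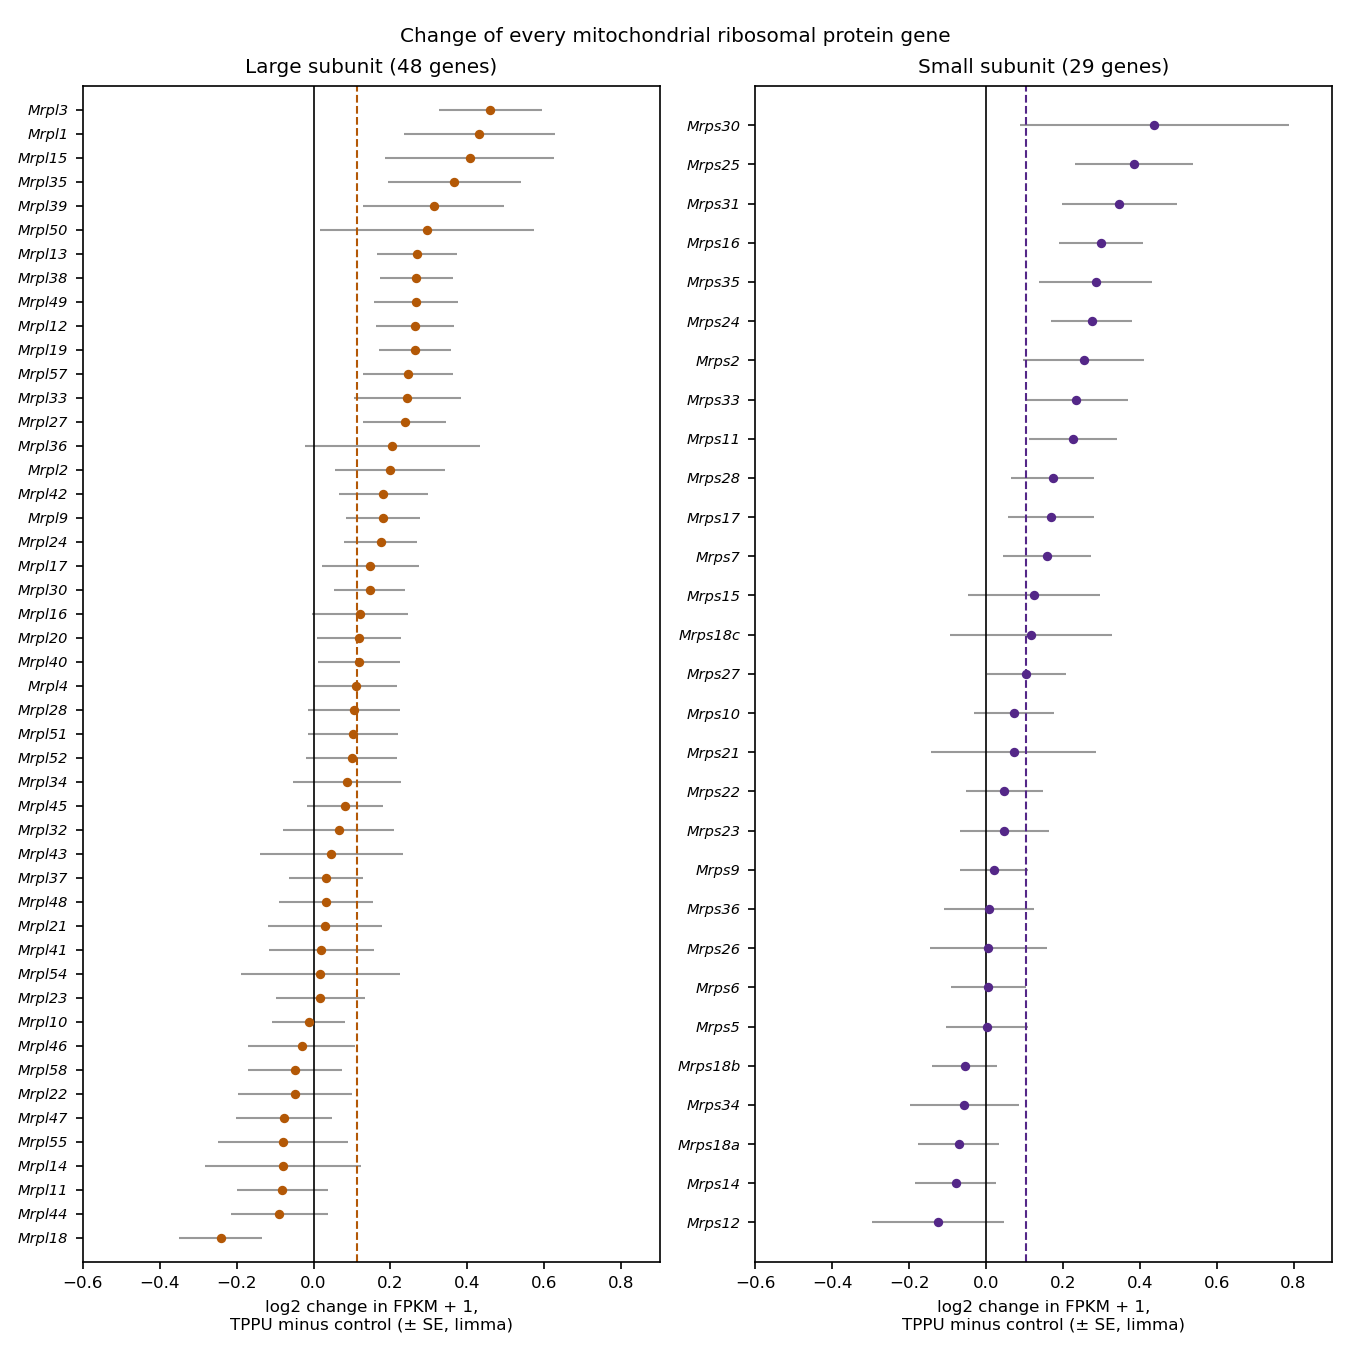
Change of each of the 77 members (TPPU minus control, difference of mean log2(FPKM + 1)), ordered by size within the large and the small subunit. Bars show the standard error from limma to each side. Most points lie above 0 (38 of 48 and 24 of 29), and many of the bars cross 0.

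Short stretches of promoter windows, which reach past the gene's start, are shown for 7 members. They were chosen because they carry the letters of factors known to bind housekeeping and mitochondrial genes. The members that hold them also range from the largest change to negative changes. RefSeq promoter windows (GRCm38.p6, 250 bases before to 50 after the gene's start) were matched for 68 of the 77 members. Each run is written 5′ to 3′ on the strand of the gene, with the match in capitals.
Mrpl3, chr9:105053238-105053266, plus strand: tgagaaacggaCCGGAAGtggcccggctg
Mrps16, chr14:20393547-20393575, minus strand: ttgggggcgctCTTCCGGgcttcaggctc
Mrpl58, chr11:115403695-115403751, plus strand: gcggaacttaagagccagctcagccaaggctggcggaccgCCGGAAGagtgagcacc
Mrps22, chr9:98601680-98601730, minus strand: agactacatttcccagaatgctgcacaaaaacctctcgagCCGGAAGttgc
Mrpl49, chr19:6057721-6057750, minus strand: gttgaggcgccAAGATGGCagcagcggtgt
Mrps24, chr11:5707652-5707676, minus strand: cgcgccggcccAAGATGGCgtggtc
Mrps18a, chr17:46111004-46111033, plus strand: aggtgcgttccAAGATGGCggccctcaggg
In the first 4 the capitals mark CCGGAAG, a core bound by ETS factors such as GABP, read on the opposite strand in Mrps16, and in the last 3 they mark AAGATGGC, a core of the YY1 motif.

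Motifs were searched on both strands as exact letters. CCGGAAG stood in 25 of 68 member windows (36.8%), beside 22.8% of 7703 windows of tested genes and 9.93% of all 27025 windows. AAGATGGC stood in 12 windows (17.6%), beside 5.97% and 3.19%. Of its 12 matches 4 lay before the gene's start, and the median position was 19 bases after it. For CCGGAAG, 18 of 29 matches lay before the start. The start in these counts is that of the RefSeq window, which can differ from the GENCODE start. By the GENCODE spans given below, the matches shown for Mrpl3 and Mrps16 lie inside the gene and overlap an annotated exon. In Mrpl49, Mrps24 and Mrps18a the AAGATGGC match was centred 20, 40 and 15 bases after the start. Whether any match acts as a promoter site was not tested. GCGCATGC, part of the motif of NRF1, a regulator of nuclear genes for mitochondria, stood in 8 (11.8%), beside 6.72% and 3.05%. At least 1 of these motifs stood in 37 windows (54.4%), beside 32.0% and 14.9%, and 3 windows held both CCGGAAG and AAGATGGC. The E-box CACGTG, bound by Myc among others, stood in 5 windows (7.35%), beside 12.3% and 8.09%, and TATAAA in 5 (7.35%), beside 8.13% and 15.7%. The members' median change was 0.07 with CCGGAAG and 0.12 without it, 0.17 with AAGATGGC and 0.09 without it, and 0.11 with GCGCATGC and 0.10 without it. The differences between these medians were not tested. Mrpl3 (0.46) and Mrps16 (0.30) carry CCGGAAG as do Mrps22 (0.05) and Mrpl58 (-0.05), and Mrpl49 and Mrps24 (both 0.27) carry AAGATGGC as does Mrps18a (-0.07).

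Many members share a start region with a neighbour on the other strand. In GENCODE M21 (mm10), 23 of 77 members (29.9%) had a protein-coding gene that starts on the opposite strand within 1000 bases upstream, with an overlap of up to 200 bases allowed, beside 1256 of 9191 protein-coding genes tested (13.7%). Of 19 such pairs with both genes tested, 9 had changes of the same sign. Mrpl30 (0.15) lies 66 bases from Mitd1 (0.38), and Mrpl49 (0.27) lies 59 bases from Fau (0.14), which encodes a cytosolic ribosomal protein. Mrpl36 (0.21) overlaps the start of Ndufs6 (0.32), a complex I subunit, by 29 bases. Mrpl57 (0.25) lies 49 bases from Ska3, whose change was -0.29, and Mrps12 (-0.12) lies 172 bases from Sars2 (0.04), the mitochondrial seryl-tRNA synthetase. These pairs were chosen after their values were seen.

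In the large subunit, 38 of 48 members had a positive change, with a median of 0.11. An unadjusted p under 0.05 with a higher TPPU mean was found in 6 (12.5%), beside 4.19% of all genes tested. The count of 6 was 4, 7 and 8 without control replicates 1, 2 and 3, beside 3.80%, 4.57% and 6.86% of all genes. It was 3, 2 and 3 without TPPU replicates 1, 2 and 3, beside 3.598%, 2.47% and 2.37%. The TPPU values lay above all control values in 13 (27.1%), beside 7.48% of all genes tested: Mrpl3, Mrpl9, Mrpl12, Mrpl13, Mrpl15, Mrpl19, Mrpl24, Mrpl30, Mrpl33, Mrpl35, Mrpl38, Mrpl49 and Mrpl57. They lay below in 1, Mrpl18 (2.08%, beside 7.88%). Proteins that reach the peptidyl transferase region, where the peptide bond is made, are encoded by Mrpl2, Mrpl3, Mrpl16 and Mrpl27, and all 4 had positive changes, with a median of 0.22.

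Mrpl3 (chr9:105053239-105079888, mm10) encodes the counterpart of bacterial L3 near that centre and had the lowest p of the large subunit. It was at 6.22, 6.97 and 4.87 FPKM in control replicates 1, 2 and 3 and at 8.10, 8.58 and 9.08 in TPPU replicates 1, 2 and 3. Every TPPU value was above every control value, and control replicate 3 was the lowest library. The means were 6.02 ± 1.07 and 8.59 ± 0.488 FPKM (SD, n = 3 each), 42.6% apart. The log2 change was 0.46 (SE 0.13, 95% confidence interval 0.15 to 0.77), and limma gave an adjusted p of 0.492. Without control replicate 3 the change was 0.34.

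Mrpl38 (chr11:116131817-116138868) encodes a mitochondrion-specific protein of the central protuberance, the crown of the large subunit. It was at 22.3, 19.5 and 22.1 FPKM in control and at 26.4, 25.5 and 25.5 in TPPU libraries. The groups did not overlap, and TPPU replicates spread less (25.8 ± 0.529) than controls (21.3 ± 1.57). The change was 0.27 (SE 0.09), with an adjusted p of 0.564 in limma. In the same region Mrpl18, the counterpart of the bacterial protein L18 that binds 5S rRNA, had the opposite order, with control values of 17.2, 16.8 and 17.4 FPKM and TPPU values of 15.8, 14.8 and 12.6. It was named after its values were seen, as the sole large subunit member with every TPPU value below every control value. Its change was -0.24, with an adjusted p of 0.627 in limma. Of the 5 members assigned to the central protuberance (Mrpl18, Mrpl38, Mrpl40, Mrpl46 and Mrpl48), 3 had a positive change, with a median of 0.03.

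Mrpl12 (chr11:120484613-120489065) encodes the protein of the flexible stalk that recruits translation factors. It was at 23.6, 24.1 and 28.0 FPKM in control and at 31.0, 31.6 and 28.7 in TPPU libraries. The groups did not overlap, but control replicate 3 and TPPU replicate 3 lay close together. The change was 0.26 (SE 0.10, 95% confidence interval 0.03 to 0.50), with an adjusted p of 0.579 in limma. With libraries weighted by their quality as estimated in limma, which gave control replicate 1 a weight of 3.84 and control replicate 3 a weight of 0.191, Mrpl12 was the sole member past the threshold, with a change of 0.35, an SE of 0.07 and an adjusted p of 0.0422. Those weights called 0.915% of all genes tested higher and 0.822% lower, so 1 of 77 members is near the background. That p ranged up to 0.989 over the alternatives. The other stalk genes did not share its pattern, since Mrpl10 had a change of -0.01 and Mrpl11 of -0.08.

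Mrpl19 (chr6:81957851-81965958), the counterpart of bacterial L19, was at 12.7, 12.5 and 13.6 FPKM in control and at 16.3, 14.9 and 16.0 in TPPU libraries. The groups did not overlap, and the change was 0.26 (SE 0.09), with an adjusted p of 0.564 in limma. Mrpl13, the counterpart of bacterial L13, was at 6.22, 6.50 and 5.55 FPKM in control and at 7.88, 7.41 and 7.32 in TPPU libraries, a change of 0.27 (SE 0.10). Mrpl49 was at 12.2, 12.6 and 10.6 FPKM in control and at 13.6, 15.7 and 13.9 in TPPU libraries, a change of 0.27 (SE 0.11). In both, the lowest library was control replicate 3, and the groups did not overlap. The adjusted p in limma was 0.588 for Mrpl13 and 0.61 for Mrpl49.

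**Figure D2:**
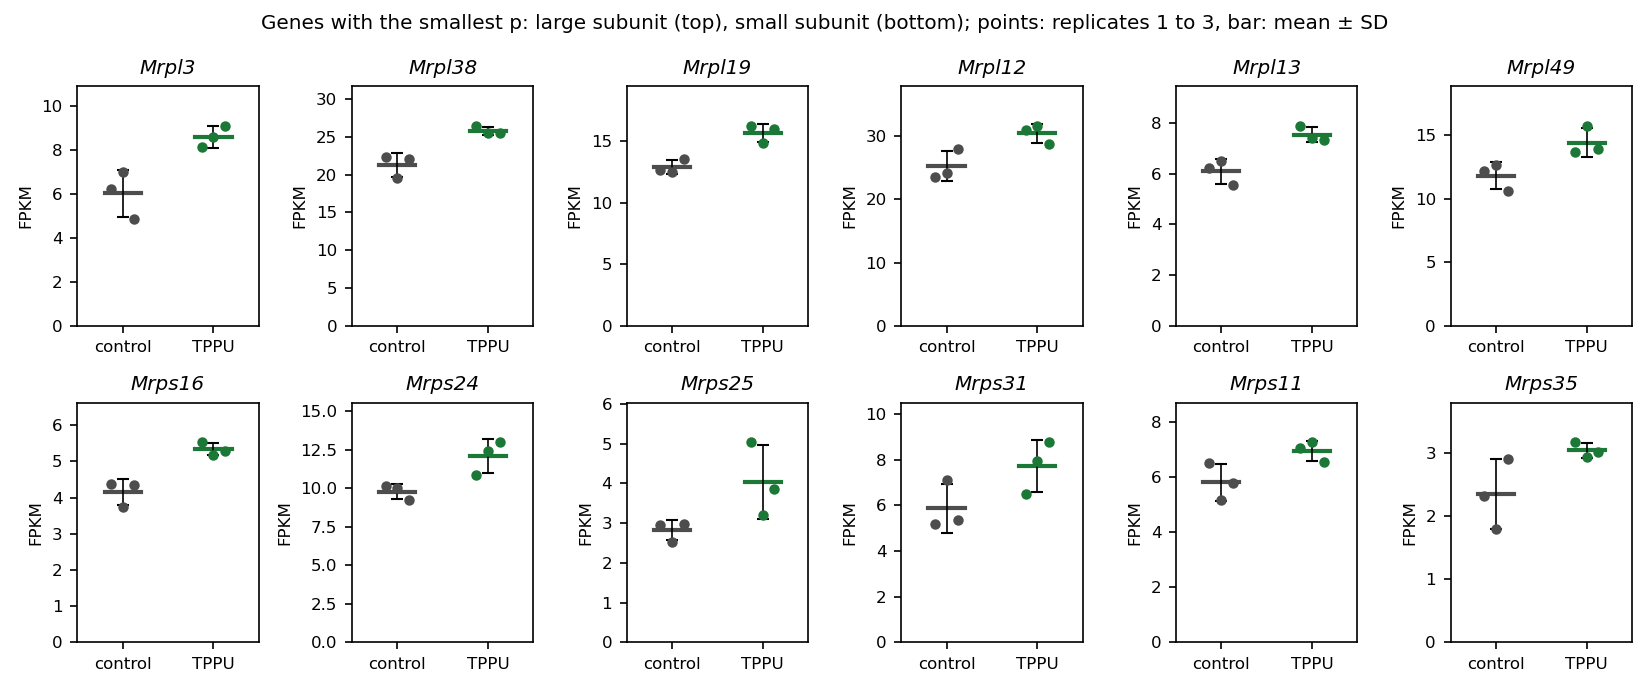
FPKM in each of the 6 libraries, with the mean and SD (n = 3), for members with the lowest p of each subunit. Control and TPPU libraries do not overlap in Mrpl3, Mrpl38, Mrpl19, Mrpl12, Mrpl13, Mrpl49, Mrps16, Mrps24, Mrps25, Mrps11 and Mrps35, and overlap in Mrps31.

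Genes for the rim of the tunnel through which the new chain leaves had a mixed pattern: of Mrpl22, Mrpl23, Mrpl24, Mrpl44 and Mrpl45, 3 had a positive change, with a median of 0.02. Mrpl24 was the most abundant member, at 59.0, 52.4 and 62.9 FPKM in control and at 67.6, 63.4 and 65.7 in TPPU libraries. The groups did not overlap, though by a narrow gap, and the change was 0.17 (SE 0.10). Mrpl45, which anchors the ribosome to the inner membrane, was at 43.5, 37.7 and 38.7 FPKM in control and at 38.9, 43.2 and 44.8 in TPPU libraries. The groups overlapped, with a change of 0.08 and a 95% confidence interval of -0.15 to 0.31. Mrpl44, whose protein has the fold of a ribonuclease III, was at 15.8, 14.4 and 17.5 FPKM in control and at 14.8, 17.0 and 13.0 in TPPU libraries, a change of -0.09 with an interval of -0.38 to 0.20. Mrpl4, the counterpart of the bacterial protein that lines the tunnel, was also among the 3 most abundant, with 44.4 to 53.9 FPKM in control and 47.7 to 55.6 in TPPU libraries.

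The least abundant large subunit members were Mrpl32, Mrpl48 and Mrpl51. Mrpl32 was at 2.16, 2.84 and 2.08 FPKM in control and at 2.72, 2.13 and 2.68 in TPPU libraries, a change of 0.07. Mrpl48 and Mrpl51 had changes of 0.03 and 0.10, and the groups overlapped in each of the 3. Mrpl58 encodes a peptidyl-tRNA hydrolase that became a ribosomal subunit and can free stalled chains. It was at 4.50, 5.46 and 5.12 FPKM in control and at 4.99, 4.26 and 5.24 in TPPU libraries, a change of -0.05. Mean levels over the 6 libraries spanned 2.43 to 61.8 FPKM in the large subunit, 25.4-fold, and 2.70 to 32.2 in the small subunit, 11.9-fold, although most of the proteins are known to be present in equal numbers in the particle. The median member was at 11.8 FPKM in the large and at 8.98 in the small subunit, beside 8.19 for all genes tested.

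In the small subunit, 24 of 29 members had a positive change, with a median of 0.10. That median moved with single controls: it was 0.16 without control replicate 1, 0.058 without control replicate 2 and 0.11 without control replicate 3. An unadjusted p under 0.05 with a higher TPPU mean was found in 4 (13.8%), beside 4.19% of all genes tested. The count of 4 was 1, 2 and 4 without control replicates 1, 2 and 3, beside 3.80%, 4.57% and 6.86% of all genes. It was 2, 1 and 0 without TPPU replicates 1, 2 and 3, beside 3.598%, 2.47% and 2.37%. The TPPU values lay above all control values in 6 members (20.7%, beside 7.48% of all genes tested), Mrps11, Mrps16, Mrps17, Mrps24, Mrps25 and Mrps35, and below in 1 (3.45%, beside 7.88%), Mrps18b.

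Mrps16 (chr14:20389304-20393634) encodes the counterpart of bacterial S16, which takes part in building the small subunit. It was at 4.38, 3.74 and 4.33 FPKM in control and at 5.52, 5.19 and 5.29 in TPPU libraries. The lowest TPPU value, 5.19, exceeded the highest control value, 4.38. The means were 4.15 ± 0.360 and 5.33 ± 0.170 FPKM (SD, n = 3 each), and the change was 0.30 (SE 0.11, 95% confidence interval 0.05 to 0.55), with an adjusted p of 0.564 in limma.

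Mrps24, the counterpart of bacterial S3 at the mRNA entry, was at 10.1, 9.997 and 9.25 FPKM in control and at 10.9, 12.4 and 13.0 in TPPU libraries, a change of 0.27 (SE 0.11). TPPU replicate 1 lay nearest to the controls. Mrps25, a mitochondrion-specific protein, was at 2.94, 2.53 and 2.99 FPKM in control and at 5.03, 3.21 and 3.86 in TPPU libraries, a change of 0.39 (SE 0.15). Here TPPU replicate 1 was the highest library, and the change was 0.25 without it. Mrps31, also mitochondrion-specific, was at 5.17, 7.11 and 5.35 FPKM in control and at 6.51, 7.93 and 8.74 in TPPU libraries, with overlapping groups and a change of 0.35 (SE 0.15). Their adjusted p in limma was 0.579, 0.60 and 0.627 in that order.

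Mrps11 (chr7:78783119-78792989), the counterpart of bacterial S11 on the platform of the small subunit, was at 6.51, 5.17 and 5.79 FPKM in control and at 7.05, 7.27 and 6.57 in TPPU libraries. The groups were separated by the small gap between 6.51 and 6.57 FPKM. Its change was 0.23 (SE 0.11), with an adjusted p of 0.639 in limma. Mrps35, the least abundant small subunit member, was at 2.33, 1.81 and 2.92 FPKM in control and at 3.17, 2.94 and 3.03 in TPPU libraries, a change of 0.29 (SE 0.15). Mrps12 and Mrps25 were the next lowest. Mrps12, whose bacterial counterpart S12 guards decoding accuracy, was at 3.97, 3.20 and 3.12 FPKM in control and at 4.07, 2.36 and 2.90 in TPPU libraries, a change of -0.12 (SE 0.17).

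The most abundant small subunit members were Mrps23, Mrps15 and Mrps18b. Mrps23 was at 31.3, 29.2 and 34.3 FPKM in control and at 36.5, 28.6 and 33.2 in TPPU libraries, so the groups overlapped widely, with a change of 0.05. Mrps22 and Mrps34, both genes in which loss of function is known to cause mitochondrial disease, had changes of 0.05 and -0.06, with overlapping groups. Mrps36, whose protein is now known as a subunit of the oxoglutarate dehydrogenase complex and not of the ribosome, was at 9.19, 9.31 and 10.2 FPKM in control and at 8.79, 9.05 and 11.1 in TPPU libraries, a change of 0.01.

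Mitochondria have 3 genes in the place of the single bacterial S18, and each protein has its own site in the ribosome. Mrps18a, whose protein lies in the large subunit despite its name, was at 15.3, 14.5 and 17.3 FPKM in control and at 14.8, 15.9 and 14.0 in TPPU libraries, a change of -0.07. Mrps18b was at 23.2, 22.4 and 22.4 FPKM in control and at 22.1, 21.6 and 21.7 in TPPU libraries. Every TPPU value was below every control value, with a change of -0.06 (SE 0.09) and an adjusted p of 0.873 in limma. Mrps18c varied most within groups, at 11.03, 8.34 and 5.94 FPKM in control and at 8.88, 7.42 and 10.99 in TPPU libraries, a change of 0.12 (SE 0.21) that was -0.09 without control replicate 3. At 22.2 FPKM over all libraries Mrps18b was the most abundant of the S18 genes, and Mrps18c the least at 8.77.

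Mrps30 also encodes a protein of the large subunit. It was at 6.43, 5.54 and 2.13 FPKM in control and at 3.86, 7.92 and 7.72 in TPPU libraries. Control replicate 3 and TPPU replicate 1 were low, and the groups overlapped. The change was 0.44 (SE 0.35, 95% confidence interval -0.36 to 1.24), with an adjusted p of 0.756 in limma, and it ranged from 0.05 without control replicate 3 to 0.72 without TPPU replicate 1. With Mrps30 and Mrps18a moved to the large subunit and Mrps36 left out, 39 of 50 large subunit and 22 of 26 small subunit genes had a positive change, with a median of 0.11 in each. By origin, 37 of 48 members with a bacterial counterpart had a positive change (median 0.12), as did 24 of 28 mitochondrion-specific members (median 0.10).

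Summed over genes, the large subunit stood at 677, 671 and 696 FPKM in control and at 762, 737 and 744 in TPPU libraries. The groups did not overlap, and the means of 681 ± 12.9 and 748 ± 12.5 FPKM (SD, n = 3 each) lay 9.74% apart. The small subunit stood at 334, 320 and 323 FPKM in control and at 347, 340 and 356 in TPPU libraries, means of 326 ± 7.21 and 348 ± 8.45 that lay 6.66% apart. The summed FPKM of all genes was also higher in every TPPU library, 301489 to 303842 against 297998 to 300054 in control. All members together made up 0.337% ± 0.00377 of the summed FPKM in control and 0.362% ± 0.00415 in TPPU libraries. These shares lay 7.40% apart, beside 8.74% for the members' sums. The ratio of large to small subunit sums was 2.03, 2.09 and 2.15 in control and 2.19, 2.17 and 2.09 in TPPU libraries, so it overlapped between groups. The sums give the most weight to abundant genes such as Mrpl24 and Mrpl4.

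**Figure D3:**
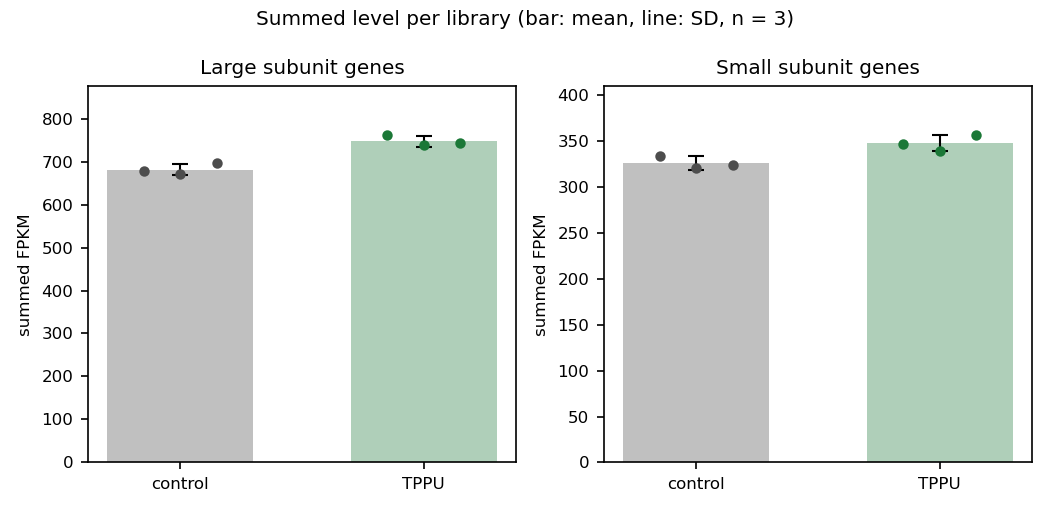
Summed FPKM of the large (left) and small (right) subunit genes per library, as points, with bars for the mean and lines for the SD (n = 3). All TPPU points lie above all control points, 737 to 762 against 671 to 696 FPKM on the left and 340 to 356 against 320 to 334 on the right.

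Libraries of a group did not carry the pattern evenly. The median deviation of the large subunit members from their mean over libraries was -0.07, -0.04 and -0.01 in control and 0.08, 0.06 and 0.10 in TPPU libraries on the log2 scale. For the small subunit it was -0.00, -0.04 and -0.04 in control and -0.00, 0.06 and 0.08 in TPPU libraries, so TPPU replicate 1 lay with control replicate 1. Of the 77 members, 25 had their highest value in TPPU replicate 1 and 19 in TPPU replicate 3, and 21 had their lowest in control replicate 2 and 21 in control replicate 3. Control replicate 3 was at the same time the highest library for 14 members.

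**Figure D4:**
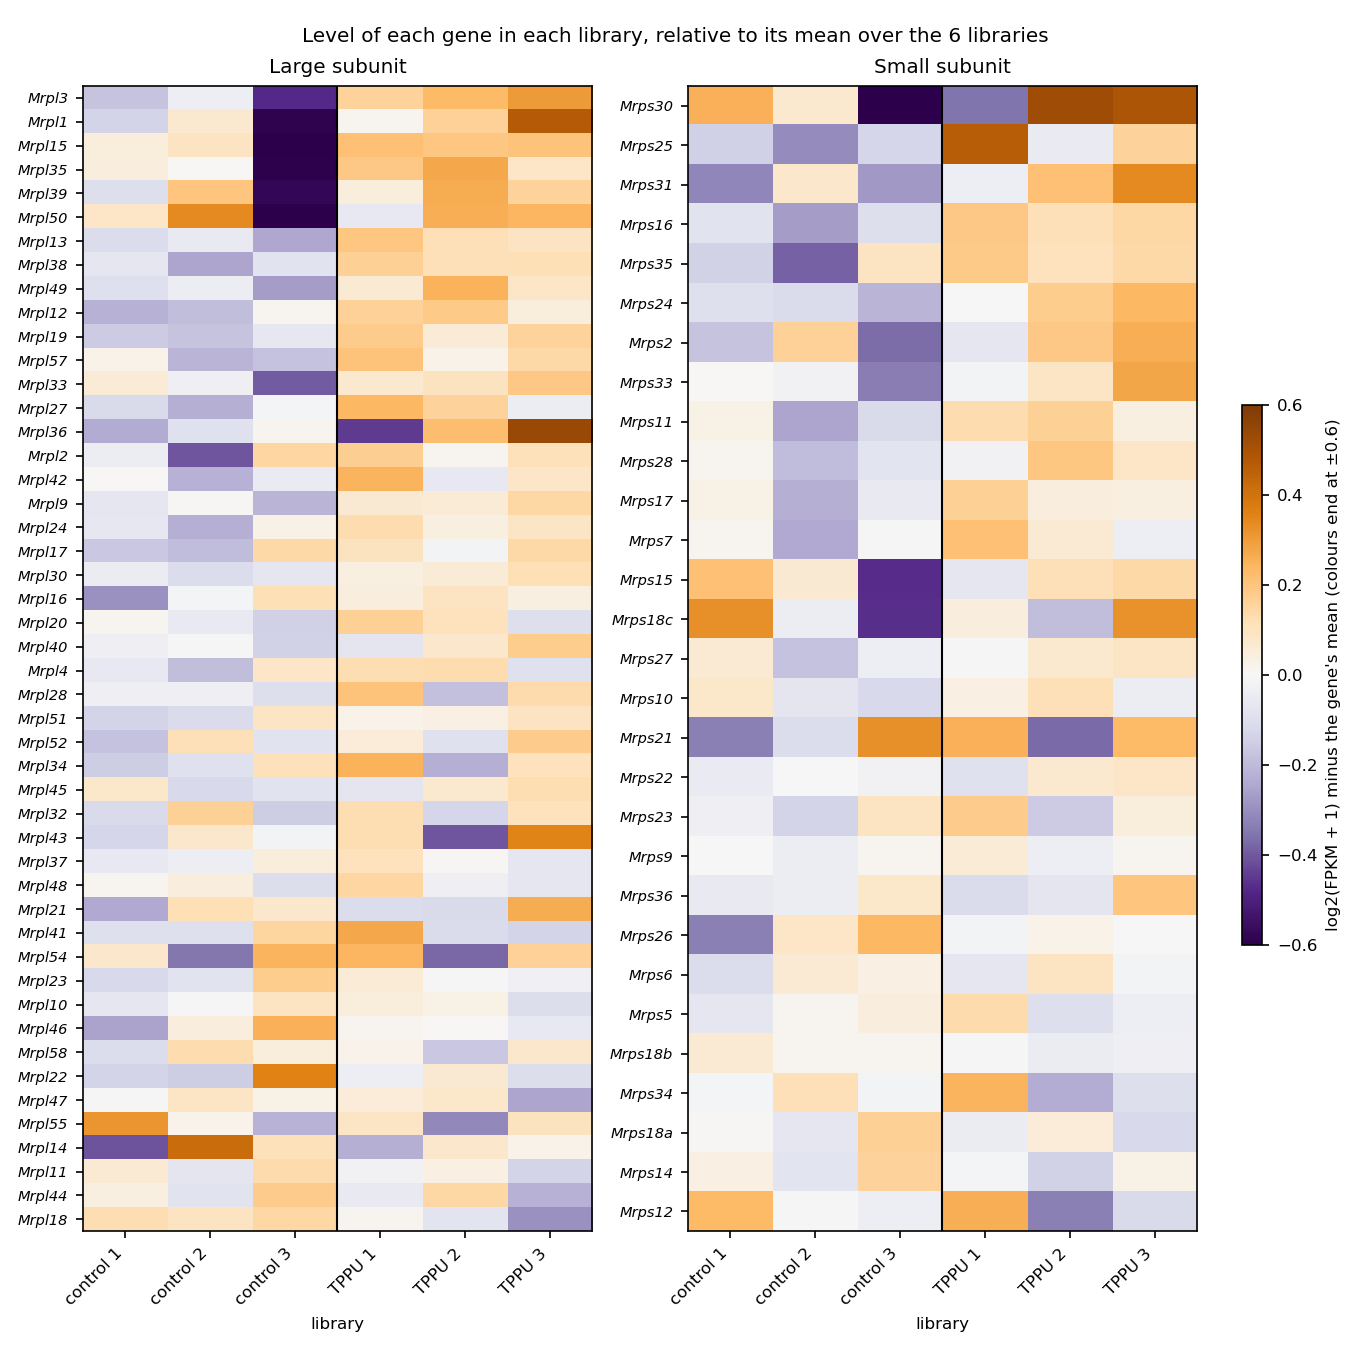
Deviation of each member from its own mean over the 6 libraries (log2(FPKM + 1), colour), with members in order of change within each subunit and libraries in columns. Control replicate 3 holds both strongly negative and positive cells, 21 lowest and 14 highest values.

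Control replicate 3 was the lowest library more often among members of low GC content. In the 26 members of lowest GC content (39.6% to 47.4%), control replicate 3 was the lowest library for 12 and the highest for 2, with a median deviation of -0.14. In the 26 of middle GC content it was the lowest for 6 and the highest for 8. In the 25 members of highest GC content (52.6% to 60.6%) it was the lowest for 3 and the highest for 4. Across the 77 members the deviation of control replicate 3 had a Pearson correlation with GC content of 0.40, beside -0.29 to 0.11 in the other libraries, and across all genes tested it was 0.56. Other libraries also followed GC content across all genes, at -0.15 in control replicate 1, -0.41 in control replicate 2, and 0.24, -0.25 and -0.39 in TPPU replicates 1, 2 and 3. Examples chosen after their values were seen are Mrpl50, at 12.6, 15.2 and 6.02 FPKM in control and 11.3, 14.3 and 14.1 in TPPU libraries, and Mrpl15, at 3.70, 3.86 and 1.69 FPKM in control and 4.26, 4.19 and 4.23 in TPPU libraries. Without control replicate 3 the change of Mrpl50 moved from 0.29 to -0.06 and that of Mrpl15 from 0.41 to 0.13, while that of Mrpl12 was 0.34 and that of Mrpl38 was 0.29. Mrps15, which at 54.0% is of high GC content, was also low in control replicate 3 (19.8 FPKM, beside 32.4 and 29.1 in the other controls), and its change moved from 0.13 to -0.08.

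Without control replicate 3 a positive change was found in 61 of 77 members (79.2%), beside 53.8% of all genes, with a median of 0.11. With the trend on GC content removed it was found in 57 (74.0%), beside 48.9%, with a median of 0.10. Other libraries moved this count further. It was 54 without control replicate 1, beside 53.0% of all genes, and 59 without control replicate 2, beside 50.8%. Without TPPU replicates 1, 2 and 3 it was 52, 64 and 58, beside 52.0%, 53.6% and 55.6%. In the members of lowest GC content, the median change was 0.18 with all libraries and 0.13 without control replicate 3. The correlation of the change with GC content across members was -0.33 with all libraries and -0.07 without control replicate 3. Counts of non-overlapping members grew when a library was left out, as they did for all genes: without control replicate 3, 20 of 48 large subunit members lay wholly above, beside 17.0% of all genes tested. Without TPPU replicate 1, 13 of 29 small subunit members did, beside 14.5%, and without control replicate 1, 10 did, beside 11.5%. What made control replicate 3 differ was not tested.

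**Figure D5:**
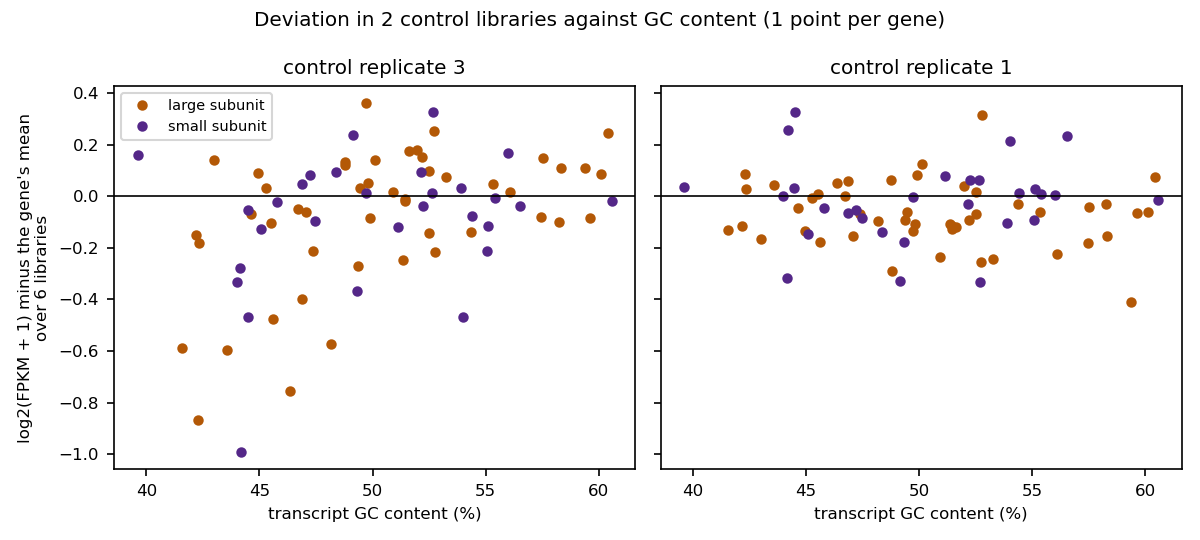
Deviation of each member from its mean over the 6 libraries (log2(FPKM + 1)) against the GC content of its longest coding transcript. The panels show control replicate 3 (left) and control replicate 1 (right). The Pearson correlation over 77 members was 0.40 in control replicate 3 and -0.08 in control replicate 1. Over all libraries other than control replicate 3, including those not drawn, it was -0.29 to 0.11.

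The other genes of mitochondrial translation were taken from lists of textbook membership. Of 5 mitoribosomal proteins under other symbols, 4 had a positive change and none passed the test. Chchd1, a small subunit protein, was at 25.6, 24.8 and 22.8 FPKM in control and at 34.1, 37.9 and 37.7 in TPPU libraries. The groups were far apart (24.4 ± 1.44 and 36.6 ± 2.15 FPKM, SD, n = 3 each), with a change of 0.56 (SE 0.09) and an adjusted p of 0.215 in limma. Dap3, which binds GTP in the small subunit, had a change of -0.02, and Ptcd3, a small subunit RNA-binding protein, of 0.21.

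Factors that assemble the ribosome or modify its RNA had a positive change in 19 of 27 tested genes, with a median of 0.05 and none past the test. Tfb1m, which methylates the small subunit rRNA, had a change of 0.32. Translation factors and mRNA-binding proteins had a positive change in 11 of 15, with a median of 0.02. Mitochondrial aminoacyl-tRNA synthetases and the amidotransferase, which charge tRNAs, had a positive change in 16 of 19, with a median of 0.16, and 5 of them (26.3%, beside 7.48% of all genes tested) had all TPPU values above all control values. Gatc, a subunit of the amidotransferase, was at 12.6, 12.0 and 10.4 FPKM in control and at 14.5, 14.5 and 16.5 in TPPU libraries, a change of 0.35 with an adjusted p of 0.548 in limma. Rars2, which charges arginine tRNA, was at 10.5, 10.3 and 5.40 FPKM in control and at 11.9, 12.1 and 12.7 in TPPU libraries, with control replicate 3 low again. Genes of mitochondrial transcription and DNA maintenance had a positive change in 7 of 9, with a median of 0.13.

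Of the regulators of nuclear genes for mitochondria, 7 of 9 had a negative change, with a median of -0.09, and none passed the test. The 2 with a positive change were Gabpa (0.10) and Gabpb1 (0.20), which encode the subunits of GABP, and their groups overlapped. The genes of the other factors named for the promoters, Yy1 and Nrf1, had changes of -0.13 and -0.07, also with overlapping groups. Myc, a transcription factor known to drive ribosome genes, was at 6.76, 9.12 and 7.11 FPKM in control and at 3.29, 4.73 and 5.24 in TPPU libraries. Every TPPU value was below every control value (7.66 ± 1.27 and 4.42 ± 1.01 FPKM, SD, n = 3 each), and limma gave an adjusted p of 0.397.

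Transcripts of the mitochondrial genome itself, which the mitoribosome translates, varied widely between libraries of a group. Of 11 tested, 6 had a positive change, with a median of 0.01. Their median deviation on the log2 scale was 0.08, 0.30 and -0.86 in control and -0.38, 0.05 and 0.49 in TPPU libraries, so control replicate 3 was the lowest and TPPU replicate 1 the next. mt-Co1, the core subunit of cytochrome c oxidase, was at 3803, 4383 and 784 FPKM in control and at 2418, 4063 and 4833 in TPPU libraries. Far below it, mt-Co2 was at 7.36, 7.53 and 1.38 FPKM in control and at 6.82, 9.55 and 9.16 in TPPU libraries. Why levels differ this much between transcripts of the mitochondrial genome was not tested.

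The lean of the members was not shown to be particular to them. Cytosolic ribosomal protein genes had a positive change in 78 of 84 tested, with a median of 0.13, and all TPPU values lay above all control values in 21, beside 7.48% of all genes tested. Nuclear genes of complex I, whose other subunits are made by the mitoribosome, had a positive change in 30 of 35, with a median of 0.17, and were fully above in 7, beside the same share. The corresponding medians were 0.11 for the 48 large subunit members and 0.10 for the 29 small subunit members. Their order changed with the processing: with quality weights the medians were 0.12 for the large subunit, 0.09 for cytosolic ribosomal proteins and 0.10 for complex I, and without control replicate 1 they were 0.16 for the small subunit and 0.14 for cytosolic ribosomal proteins. No test of a difference between these lists was made.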

How the data were processed

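Polyadenylated RNA of 6 libraries (3 control, 3 TPPU) was sequenced with a strand-marking (dUTP) protocol, per the labels' protocols. The authors deposited 1 table of FPKM per gene and library, the unit being read from the table's name and values. Per the submitters' processing notes the genome build was mm10. For the aligner, counter and annotation, the entry is: not given in the sources used here. A gene was kept when 3 or more libraries reached 1 FPKM (9728 kept, 8291 left out). Group was the only term of a fit of log2(FPKM + 1) in limma 3.58.1 (R 4.3.3) with trended variance, and p-values were two-sided and Benjamini-Hochberg adjusted, with a threshold of 0.05. FPKM is not a count, so no count model was used. Fold changes on this scale understate those of low genes. Depth was estimated from the steps between low values, and its floors cover counting error alone. Positions, lengths and GC content came from GENCODE M21 (mm10), which matched all 77 members.

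The members, gene lists and tests were chosen with earlier results of these data known. Lists are described by counts and medians beside all genes tested and were not tested as sets. Members named were, per subunit, any past the threshold, the 6 with the lowest p, the 3 highest and 3 lowest in level, and those of known structural role. Of other lists, up to 3 genes by p could be named. Dap3, Gabpa, Yy1, Nrf1 and mt-Co1 were named outside that rule. The fit was checked on simulated data. Alternatives were other pseudocounts, filters, scalings and weights, trends on length or GC content removed, a replicate block, and each library left out.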

Additional observations from a re-analysis of the deposited data

How the results depend on the processing

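Of the 17 alternatives, 4 (both filters, no trend and the replicate block) leave a member's change as it is, and the filter at a mean of 5 FPKM tested 66 of the 77 members. Over the other 13, 44 of the 77 members kept the sign of their change in every one, and 19 of the 30 members named by the rule did. Over all genes tested, 0 were past the threshold in each direction. This count became 89 higher and 80 lower with quality weights, 1 higher and 7 lower with the GC trend removed, and 0 to 5 higher and 0 to 1 lower when a library was left out (5 and 1 without TPPU replicate 1). Of the large subunit members, 1 (Mrpl12) was past it with quality weights. The median change was 0.045 in the large and 0.029 in the small subunit with the length trend removed. Leaving out a library gave 0.086 to 0.16 for the large and 0.058 to 0.16 for the small subunit. The cause of these shifts was not tested. With quantile normalization 54 members had a positive change, beside 48.9% of all genes. Same-numbered libraries had correlations of their deviations of -0.30, 0.15 and -0.40. These values cannot tell whether the replicate numbers pair the libraries by culture or batch. A replicate block cannot move a change in this balanced design, so the median of 0.11 is the same by construction. With it, 3 members had an unadjusted p under 0.05 where 10 had it without the block. With 3 libraries a group, the median standard error of 0.12 limits what can be told of a single member.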
